A study of Mus musculus with 59 samples.

Results

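The stress transcription factors of the ATF4 and CHOP pathway and their feedback genes are represented by 10 of the 19613 genes measured. They are the transcription factor genes Atf4, Ddit3 (which encodes CHOP), Atf3, Atf5, Cebpb and Cebpg, and the stress-induced regulators Trib3, Chac1, Ddit4 and Sesn2. All 10 were found by their symbols. They were picked after earlier results on the same arrays had shown Atf4, Ddit3 and Atf3 to be lower with carrier serum, so the serum differences and the correlations of the 10 genes are given below as a description and carry no test of their own.

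The cells were embryoid bodies containing spinal motor neurons, grown from the mouse embryonic stem cell line HBG3 (the labels' spelling, HGB3 in the paper). In this line a green fluorescent protein reports the motor neuron gene Mnx1 (HB9). The embryoid bodies are aggregates of several cell types from 1 stem cell line and not purified neurons. In this indicator cell assay they were exposed for 24 h to serum from male mice and then profiled on Affymetrix mouse exon arrays, in order to ask whether cells read a disease signal in blood. Carrier serum came from pre-symptomatic mice hemizygous for a mutant human SOD1 transgene (29 arrays), a model of amyotrophic lateral sclerosis, and non-carrier serum from littermates without the transgene (30 arrays). The strain label of every array is F1 of C57BL/6 and SJL, the background of the serum donors. The time point label is 9 weeks or, for 1 set of 6 arrays, 10 weeks. Its wording attaches it to cultures. By the methods of the study, however, cultures were kept for days, and the serum donors were of about this age. The label was therefore read as the age of the donors.

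Array titles fall into 9 runs, each with both sera. Runs motorneuron, HB9MNs and 10-week are named after their titles, and A to F are consecutive stretches of numbered titles. They are motorneuron (3 carrier and 4 non-carrier arrays), HB9MNs (2 and 2), A (3 and 3), B (3 and 3), C (6 and 5), D (3 and 4), E (3 and 3), F (3 and 3) and 10-week (3 and 3). The labels do not name these runs as batches. By the methods of the study, assays were done in groups of at most 8 with a fresh batch of neurons each, so run C holds more than 1 batch. It was also taken in 2 parts, where the sample list returns from carrier to non-carrier arrays. The list does the same within run motorneuron, which was not parted. Whether that run holds more than 1 batch is not known. Median intensities were 151 to 183 over the carrier arrays and 153 to 177 over the non-carrier arrays. On their mean Pearson's r with the other arrays of the run, 2 arrays stood apart by Grubbs' test, a non-carrier array of run C (0.990) and a carrier array of run E (0.979). By the same methods, each assay added a serum sample from a mouse to plated embryoid bodies, and the assays of a group shared a batch of neurons. Nothing in the labels tells whether arrays of a run came from separate cultures. Errors and p-values thus measure the spread between these arrays, in which serum donor and culture are not parted.

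The 10 genes belong to the integrated stress response. Kinases that sense unfolded protein in the endoplasmic reticulum, amino acid shortage, haem shortage or double-stranded RNA phosphorylate the translation factor eIF2. This slows protein synthesis in general while the mRNA of ATF4 is translated better. ATF4, alone or paired with C/EBP proteins such as CEBPG and CEBPB, then raises the transcription of CHOP, ATF3 and many genes of amino acid supply. TRIB3, CHAC1, DDIT4 and SESN2 are induced further down. TRIB3 restrains ATF4 and CHOP, CHAC1 degrades glutathione, and DDIT4 and SESN2 hold back the growth kinase mTORC1. In motor neurons this response has long been studied in connection with mutant SOD1.

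In RefSeq's annotation of GRCm38.p6 the 10 genes lie on 6 chromosomes. Atf4 spans chr15:80255184-80257545, Ddit3 chr10:127290793-127296291, Atf3 chr1:191170296-191183333 and Atf5 chr7:44812256-44816658. Cebpb spans chr2:167688915-167690432 and Cebpg chr7:35046422-35056566. Trib3 (chr2:152337425-152344060) and Chac1 (chr2:119351242-119354326) share chromosome 2 with Cebpb. Ddit4 lies at chr10:59949675-59951770 and Sesn2 at chr4:132492804-132510456. The interval of Ddit3 overlaps those of Mbd6 and Mars1, that of Atf5 those of Nup62 and Il4i1b, and that of Cebpg that of Gm45095; the remaining 7 overlap no other listed gene.

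Promoter windows from RefSeq (250 bases before to 50 after each start, GRCm38.p6) were found for all 10 genes, 11 windows in all. They were searched on both strands for TGATGNAA, a spelling of the composite C/EBP-ATF element through which ATF4 dimers are known to act. It was present in the windows of Atf3, Chac1 and Trib3, 3 of the 11, against 1304 of all 32851 windows (3.97%). The 250 bases before the start of Atf3 and Chac1 are printed because these genes had the largest serum differences described below, with the match in capitals (here on the reverse strand, read TTGCATCA). The match began 110 bases before the start in Atf3 and 193 bases before it in Chac1.
Atf3, chr1:191183334-191183583, minus strand: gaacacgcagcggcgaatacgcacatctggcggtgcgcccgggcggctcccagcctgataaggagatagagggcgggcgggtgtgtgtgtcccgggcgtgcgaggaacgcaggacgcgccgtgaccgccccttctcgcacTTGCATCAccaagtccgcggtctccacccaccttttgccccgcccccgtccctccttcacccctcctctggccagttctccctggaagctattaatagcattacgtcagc
Chac1, chr2:119350992-119351241, plus strand: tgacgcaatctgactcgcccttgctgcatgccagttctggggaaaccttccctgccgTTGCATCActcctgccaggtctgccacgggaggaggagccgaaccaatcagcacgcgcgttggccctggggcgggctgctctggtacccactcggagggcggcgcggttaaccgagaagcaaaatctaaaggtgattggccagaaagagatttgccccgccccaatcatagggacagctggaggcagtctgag

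In Trib3 the match lay 14 bases after the start. Short windows of 3 genes that are no members but take part in the results below are shown beside it, with the same element in capitals. Herpud1 followed Atf4 most closely across arrays, Pycr1 followed Atf5, and Slc7a11 carried 2 copies.
Trib3, chr2:152344028-152344057, minus strand: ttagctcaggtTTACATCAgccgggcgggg
Herpud1, chr8:94386306-94386335, plus strand: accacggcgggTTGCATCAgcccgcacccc
Pycr1, chr11:120643833-120643862, minus strand: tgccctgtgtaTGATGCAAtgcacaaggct
Slc7a11, chr3:50443652-50443681, minus strand: gcTGATGCAAacctggagaatTTGCATCAt

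The cyclic AMP type element TGACGTNA, at which ATF and CREB factors bind, was found in 1 member window, that of Atf3, where it begins 10 bases before the start on the reverse strand. It was held by 963 of all windows (2.93%). The matches of the different elements did not overlap. The short box CCAAT, known as a binding site of the factor NF-Y, was present in 8 of the 11 windows and in 37.4% of all. These matches describe letters in 1 window per start and no binding.

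Atf4 encodes the factor at the centre of the pathway. Its log2 intensity ran from 9.52 to 10.40 (median 9.90) over the 29 carrier arrays and from 9.52 to 10.69 (median 10.34) over the 30 non-carrier arrays. Most of the non-carrier arrays thus stood in the upper part of a range that both sera shared at its lower end. With the run as a block the carrier minus non-carrier log2 change was -0.25 (SE 0.051, 95% interval -0.35 to -0.15) (0.841 times the non-carrier intensity), and the difference was negative in 8 of 9 runs. In run D the 3 carrier arrays read 9.90, 9.91 and 9.90 and the 4 non-carrier arrays 10.35, 10.58, 10.42 and 10.24. The sera did not overlap there, nor in runs B, E, F and 10-week.

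Ddit3, whose product CHOP links the pathway to cell death, ranged from 7.05 to 8.26 (median 7.83) with carrier serum and from 7.18 to 8.66 (median 8.14) with non-carrier serum. Its log2 change was -0.29 (SE 0.077, 95% interval -0.45 to -0.14), negative in 8 of 9 runs. In run B the carrier arrays read 7.36, 7.08 and 7.05 and the non-carrier arrays 8.02, 7.84 and 8.31. The 2 lowest readings of Ddit3 on any array were among those carrier arrays, and the sera did not overlap in that run nor in D, E and F.

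Atf3, an early stress-induced factor of the same family, had the second largest change, -0.39 (SE 0.097, 95% interval -0.59 to -0.20) (0.762 times), again negative in 8 of 9 runs. Its values were 6.33 to 8.06 (median 7.11) with carrier serum and 6.22 to 8.73 (median 7.71) with non-carrier serum. In run B the carrier arrays read 6.50, 6.60 and 6.33 against 7.72, 7.32 and 8.73 for the non-carrier arrays. The single highest reading in runs B, E and 10-week was in each case 1 non-carrier array (8.73, 8.66 and 8.68), and the SD of the non-carrier arrays there was 0.725, 0.511 and 0.393.

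The other factors moved less alike. Atf5, a relative of ATF4 that induces chaperones and proteases of mitochondria, changed by -0.23 (SE 0.048, 95% interval -0.33 to -0.14), from values of 6.89 to 8.54 with carrier and 7.06 to 8.79 with non-carrier serum. Cebpg, a dimer partner of ATF4, changed by -0.27 (SE 0.070, 95% interval -0.41 to -0.13), negative in 7 of 9 runs, from values of 8.36 to 9.49 with carrier and 7.90 to 9.96 with non-carrier serum. Cebpb, which encodes another C/EBP partner, differed from the others. Its change was 0.02 (SE 0.052, 95% interval -0.08 to 0.13), and the difference was negative in 3 runs and positive in 6. Carrier arrays read 6.31 to 7.59 and non-carrier arrays 6.26 to 7.30 for Cebpb, almost the same range.

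**Figure D1:**
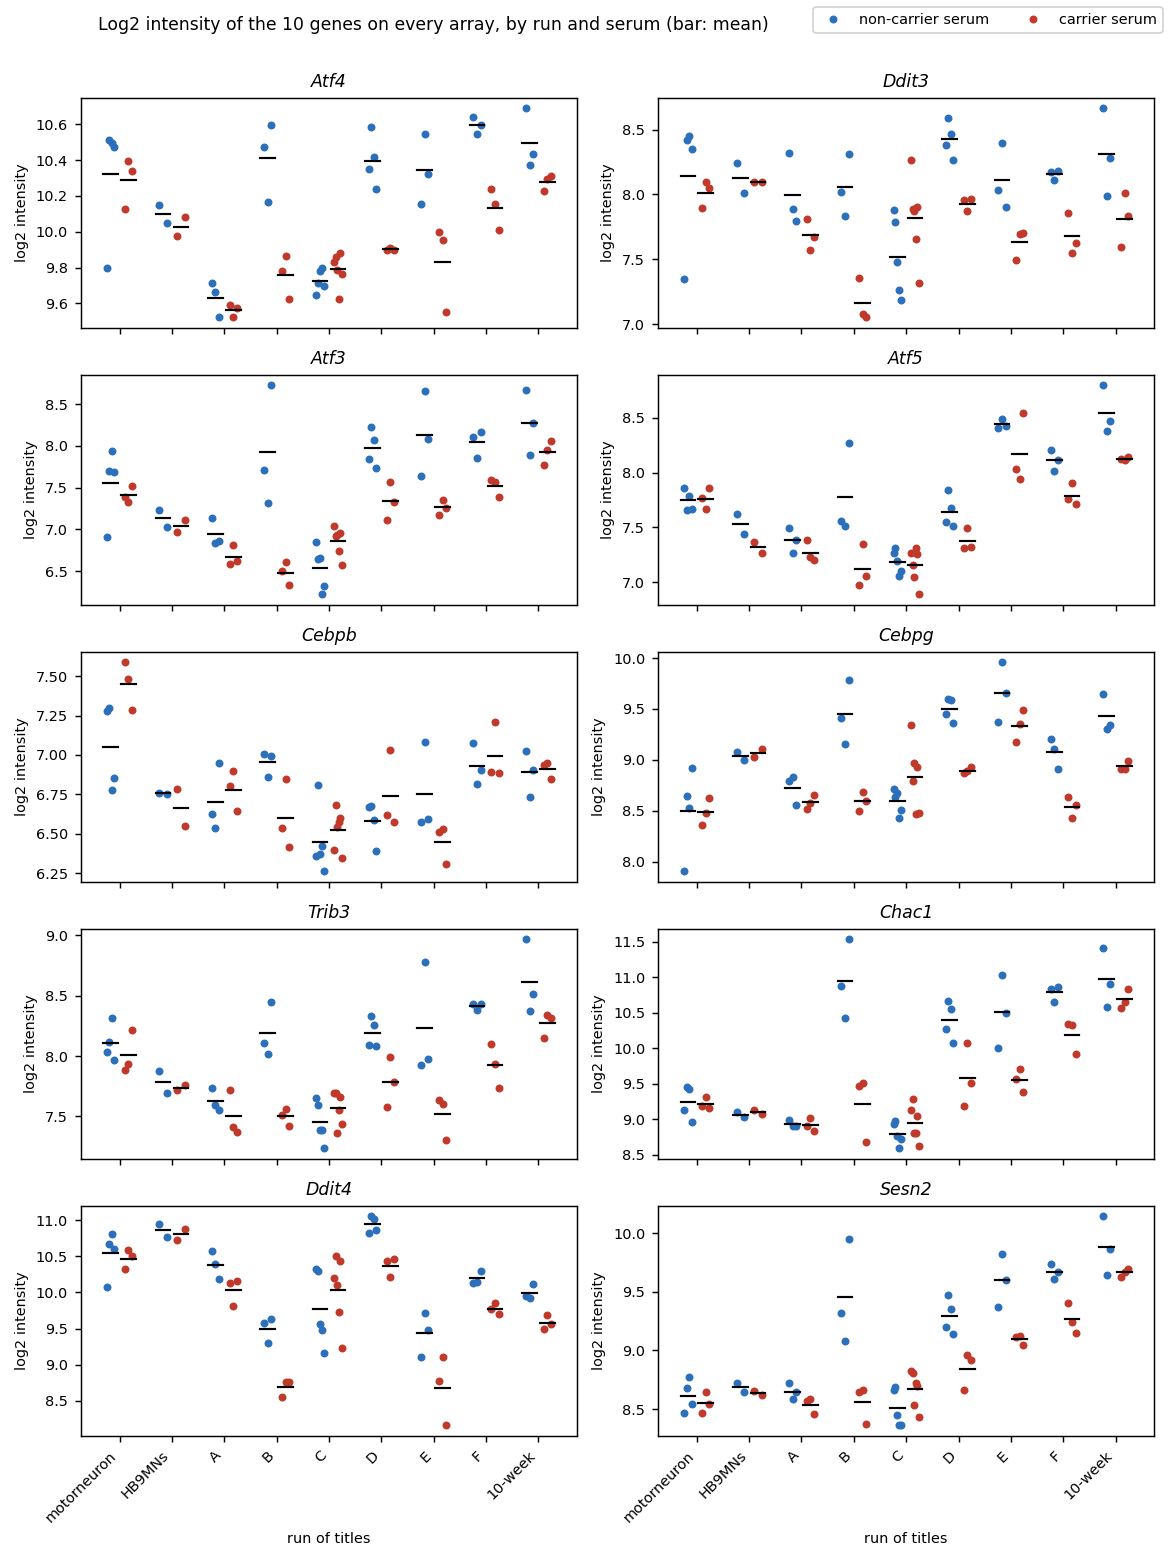
Log2 intensity (vertical axis) of the 10 genes on each of the 59 arrays, by run of titles (horizontal axis), with non-carrier arrays in blue, carrier arrays in red and the mean of each run and serum as a black bar. In runs B, D, E and F the mean with carrier serum is the lower one for all genes except Cebpb in D and F, in run C it is the higher one for 9 of 10 genes, and Chac1 and Sesn2 lie low with both sera in the runs motorneuron, HB9MNs, A and C.

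Among the regulators downstream, Chac1 had the largest change of the 10 genes, -0.43 (SE 0.105, 95% interval -0.64 to -0.22) (0.741 times), negative in 7 of 9 runs. Its values spanned 8.62 to 10.84 (median 9.29) with carrier serum and 8.59 to 11.53 (median 10.03) with non-carrier serum. In run B the carrier arrays read 9.46, 9.51 and 8.67 and the non-carrier arrays 10.88, 10.42 and 11.53, a difference of -1.73 between means. In run A the same gene read 8.90, 9.01 and 8.83 with carrier serum and 8.98, 8.90 and 8.90 with non-carrier serum, which overlap.

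Sesn2 changed by -0.25 (SE 0.059, 95% interval -0.37 to -0.13), negative in 8 of 9 runs, with values of 8.37 to 9.70 under carrier and 8.36 to 10.15 under non-carrier serum. In run B its carrier arrays read 8.65, 8.67 and 8.37 and its non-carrier arrays 9.32, 9.08 and 9.95. Trib3, which encodes a pseudokinase, changed by -0.28 (SE 0.060, 95% interval -0.40 to -0.16), negative in 8 of 9 runs, with values of 7.31 to 8.34 under carrier and 7.23 to 8.97 under non-carrier serum. Both genes overlapped between sera when all runs were pooled and did not overlap within runs B, D, E and F. Ddit4 changed by -0.31 (SE 0.085, 95% interval -0.48 to -0.14), negative in 8 of 9 runs, with values of 8.16 to 10.88 and 9.11 to 11.05. Its lowest value, 8.16, is that of the carrier array of run E that stood apart, and without that array the change was -0.28 (SE 0.081).

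In the limma fit over all genes, in which 1.65% of 19613 genes were called lower with carrier serum at an adjusted p under 0.05 and 0.683% higher, 9 of the 10 genes were among the lower, all but Cebpb. The genes were picked with this contrast known, so nothing is read from that count. The count fell to 3 (Atf4, Atf5 and Trib3) when run B, D, E or F was left out, to 5 without run 10-week, to 6 without run A, to 8 without the carrier array of run E that stood apart, to 0 without runs E and F together and to 0 without the run block (9 at an unadjusted p under 0.05 in both), while all 9 log2 changes stayed negative in each of those fits. A difference below 0 in at least 8 of 9 runs was found for 7 of the 10 genes and for 5.45% of all genes. Embryoid bodies are bulk samples, in which fewer cells of a type and less RNA per cell cannot be told apart. Of 32 marker genes of 7 cell types, 0 were lower and 1, the choline transporter gene Slc5a7 of motor neurons, was higher with carrier serum (log2 change 0.15, SE 0.042, adjusted p from limma 0.041). The summed intensity of the 9 motor neuron markers was 7166 to 9826 with carrier and 7063 to 9541 with non-carrier serum, that of the 5 progenitor markers 2062 to 3403 and 2127 to 3241, and that of the 5 pluripotent cell markers 264.5 to 481.0 and 274.0 to 436.5. The part of cell makeup in the results was not tested.

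The size of the serum difference varied with the run. In run B all carrier arrays lay below all non-carrier arrays for 10 of the 10 genes (5.26% of all genes did so in that run), and the median difference of the 10 genes was -0.83. The counts were 9 in run D (7.64% of all genes), 8 in run E (5.08%), 9 in run F (13.1%) and 5 in run 10-week (8.3%), with median differences of -0.50, -0.51, -0.47 and -0.35. In these 5 runs the genes that overlapped were Cebpb in 3, Chac1, Sesn2, Ddit3 and Atf3 in run 10-week, and Atf5 and Cebpg in run E.

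The other 4 runs looked different. In run A only Atf3 and Ddit4 parted (2 genes, against 8.07% of all genes), in run HB9MNs only Atf5 (1 gene, against 31.7% of all genes, with 2 arrays a serum), and in run motorneuron none (1.69% of all genes). The median differences there were -0.12, -0.05 and -0.05. In run C, the largest, no gene parted downwards (0.413% of all genes) and 9 of the 10 means were higher with carrier serum, from 0.07 for Atf4 to 0.32 for Atf3, while Atf5 stood at -0.03. Taken by the 2 parts of run C in the order of the sample list, 6 of 10 genes were higher in the first (3 carrier and 2 non-carrier arrays) and 9 of 10 in the second (3 and 3).

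**Figure D2:**
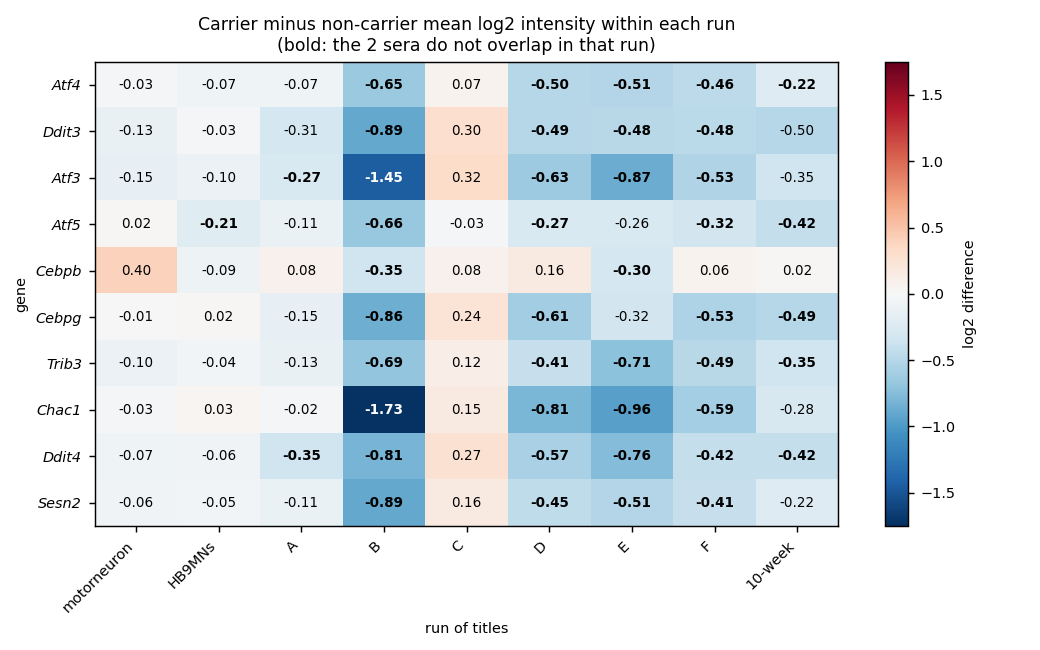
Difference of mean log2 intensity, carrier minus non-carrier serum, for each gene (rows) in each run (columns), with blue for lower and red for higher and bold values where the sera do not overlap. The deepest values are those of run B (-1.73 for Chac1, -1.45 for Atf3), and run C is the only column where 9 of 10 genes are above 0.

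Whether the serum difference of a gene varied among runs was tested with limma's moderated F test of the serum by run interaction, adjusted over all genes. It called 25 genes, 0.127% of the 19613, and 3 of them were Chac1 (adjusted p 0.00339), Sesn2 (0.0202) and Atf3 (0.0358). Cebpg had an adjusted p of 0.0653 and Atf4 of 0.072, and the other 5 lay between 0.151 and 0.513. The differences by run were known when the 10 genes were picked, so these values are not independent of the choice. The calls depended on runs B and C. Without run C 0 genes were called (1324 had an unadjusted p under 0.05), and without run B 12 were, with no member among them in either case (for Chac1 the adjusted p from limma was 0.177 and 0.175). Atf3 also lost its call without run A, D or F, with run C parted and under quantile normalization, where its adjusted p from limma was 0.0569 to 0.0652. Of the other 22 genes, 15 are among the 58 genes in the lists of ATF4 and CHOP targets described below. Eif4ebp1, Slc1a4, Aldh18a1 and Slc7a3 are 4 of them (adjusted p 0.00246 each in the same F test). The lists were written with earlier results on these arrays known, so this count is no independent support.

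The level itself differed between runs with either serum. The run accounted for 28.5% (Ddit3) to 79.5% (Atf5) of the variance of the 10 genes, above the all-gene median of 62.5% in 4 of them, and the serum within runs for 0.164% (Cebpb) to 15.3% (Ddit3), where the all-gene median was 0.941%. Chac1 was the clearest case. Its non-carrier means were 8.79 in run C, 8.93 in A, 9.06 in HB9MNs and 9.24 in motorneuron, and then, after a gap of 1.15, 10.39 in D, 10.5 in E, 10.78 in F, 10.94 in B and 10.97 in 10-week. No range of non-carrier arrays crossed that gap, and within the upper group each run overlapped the next.

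The means and ranges that follow are those of the non-carrier arrays, except where carrier serum is named. Sesn2 parted into the same low and high runs, in another order within each. Its means were 8.51 to 8.69 in C, motorneuron, A and HB9MNs. They were 9.29 to 9.89 in D, B, E, F and 10-week, with a gap of 0.61 that no range crossed. For Atf4 the means of runs A (9.63) and C (9.73) lay below the rest (10.10 to 10.59), with no overlap between C and the next run. The lowest array of run motorneuron (9.799) was level with the highest of run C (9.797), however. For Trib3 runs C, A and HB9MNs (7.45 to 7.78) lay below the rest (8.11 to 8.62). Ddit3, Atf3 and Cebpb had no neighbouring runs without overlap. Ddit4 went its own way, lowest in runs E (9.44) and B (9.50) and highest in HB9MNs (10.86) and D (10.94). With non-carrier serum run C was the lowest of 9 for Ddit3, Atf3, Atf5, Cebpb, Trib3, Chac1 and Sesn2. With carrier serum another run was the lowest for each of these genes. It was B for Ddit3, Atf3, Atf5 and Trib3, E for Cebpb, and A for Chac1 and Sesn2. Run B, among the high runs with non-carrier serum, stood beside motorneuron with carrier serum, for Sesn2 (8.562 and 8.552) and Chac1 (9.215 in both).

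The run means spread more under non-carrier than under carrier serum in 7 of the 10 genes. The share over all genes was not taken for this span, so nothing is read from the count. For Chac1 they spanned 2.17 log2 units with non-carrier and 1.77 with carrier serum, for Trib3 1.17 and 0.772. The exceptions were Ddit3 (0.907 and 0.934), Cebpb (0.604 and 1.0) and Ddit4 (1.5 and 2.12). Within runs, the SD among non-carrier arrays exceeded that among carrier arrays in 9 of the 10 genes, by the most in Atf3 (0.380 against 0.147), and in 41.6% of all genes. Ddit4 was the exception (0.293 against 0.302).

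Arrays of the same run and serum also varied together in these genes. After the mean of each run and serum was taken away, Pearson's r over the 59 arrays had a median of 0.536 among the 45 pairs (range -0.0456 to 0.896), and 28 pairs were above 0.5. Both values of a pair come from the same array, so anything that shifts an array enters both, and the correlations are given as a description. Batches within run C are one such shift. With run C parted in 2 the median r was 0.546, and no pair moved by more than 0.159. Atf4 and Ddit4 moved from 0.513 to 0.671, Ddit3 and Ddit4 from 0.669 to 0.563, and Chac1 and Sesn2 from 0.896 to 0.900. The median r of Atf4 with all other genes of the table was -0.0983 and that of Chac1 0.000953.

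Chac1 and Sesn2 were the closest pair (r 0.896, Spearman's rho 0.892, and r 0.884 without the 2 arrays farthest from the median of Chac1). Atf3 followed Sesn2 (r 0.867, rho 0.794, 0.852 without 2 arrays) and Chac1 (r 0.804, rho 0.798, 0.821), and Trib3 followed Sesn2 (r 0.786, rho 0.824, 0.777). Ddit3 and Cebpg had an r of 0.769 (rho 0.696, 0.675 without 2 arrays). Atf4 was closest to Atf3 (r 0.699, rho 0.624, 0.687 without 2 arrays) and Ddit3 (r 0.636, rho 0.579, 0.563).

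Atf5 and Cebpb stood at the edge. Atf4 and Atf5 had an r of 0.0919 (rho 0.141), which was 0.344 without the 2 arrays farthest in Atf4. One of these arrays was the carrier array of run E that stood apart, which had the lowest Atf4 (9.55 against 10.00 and 9.95) and the highest Atf5 (8.54 against 8.04 and 7.94) of its run and serum. Cebpb had its highest r with Chac1 (0.564, rho 0.551, 0.522 without 2 arrays) and its lowest with Cebpg (-0.0456, rho -0.0214, -0.137).

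**Figure D3:**
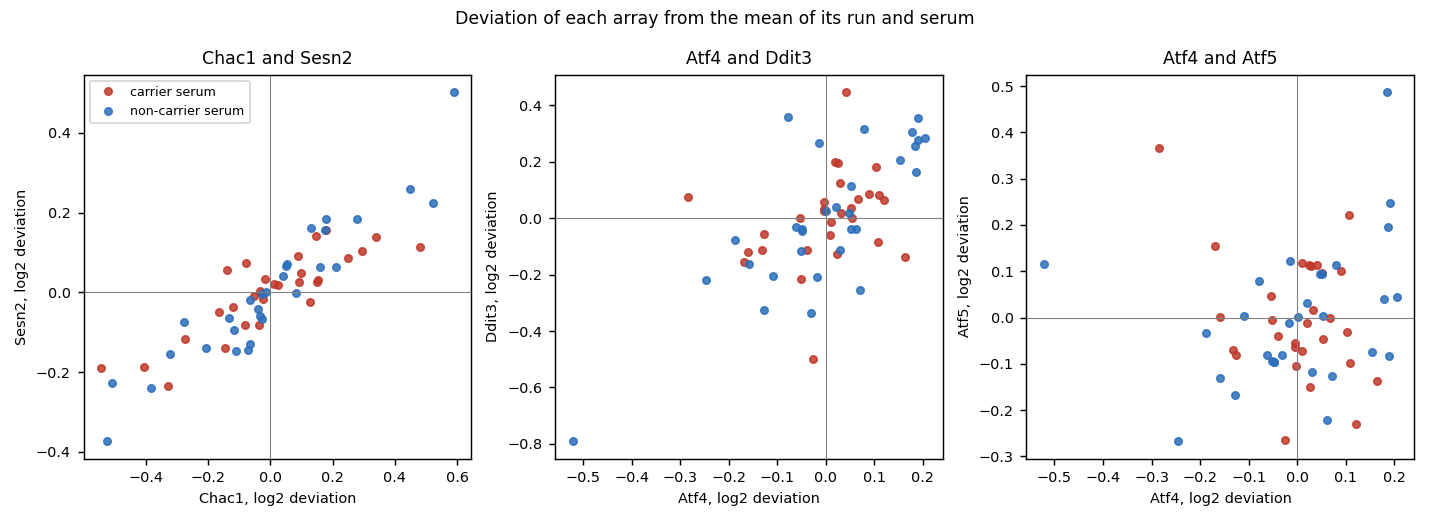
Log2 deviation of each of the 59 arrays from the mean of its run and serum for 3 pairs of genes, with carrier arrays in red and non-carrier arrays in blue. Chac1 and Sesn2 lie along a line (r 0.896), Atf4 and Ddit3 more loosely (r 0.636), and Atf4 and Atf5 form a cloud (r 0.0919).

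Within each serum, the median r among the 45 pairs was 0.641 over the 30 non-carrier arrays and 0.368 over the 29 carrier arrays. Atf4 and Cebpg had an r of 0.860 with non-carrier and 0.169 with carrier serum, Atf5 and Sesn2 of 0.858 and 0.327. The carrier array of run E that stood apart deviated by -0.284 in Atf4 and 0.152 in Cebpg. Non-carrier array 1 of run motorneuron deviated by -0.521 and -0.594. The r within each serum was not repeated without these arrays. Chac1 and Sesn2 were tight with both (0.938 and 0.848). The difference between sera was not tested, and the smaller spread among carrier arrays stands beside it.

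**Figure D4:**
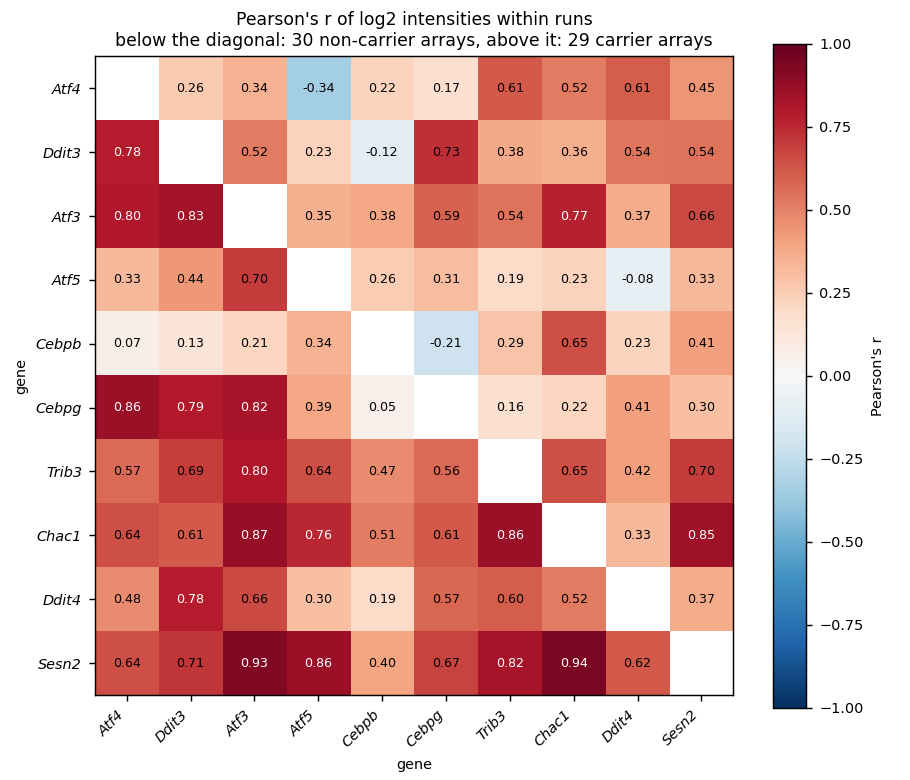
Pearson's r of log2 intensities among the 10 genes after the mean of each run and serum was taken away, over the 30 non-carrier arrays below the diagonal and the 29 carrier arrays above it. The lower triangle is the darker one (median r 0.641 against 0.368), and Cebpb has the lowest r of the lower triangle (0.0538, with Cebpg).

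Outside the 10 genes, the 2 most like Atf4 across the 59 arrays were Herpud1 (r 0.855, rho 0.805, 0.814 without 2 arrays), whose product serves the degradation of misfolded protein at the endoplasmic reticulum, and the kinase gene Plk3 (r 0.758, rho 0.640, 0.597). Ddit3 was most like A930001N09Rik (r 0.830, rho 0.795, 0.733) and Gm129 (r 0.792, rho 0.733, 0.717), an older symbol of the clock repressor gene Ciart. Atf3 was most like the reductase gene Cyb5r1 (r 0.862, rho 0.823, 0.829) and Cars (r 0.820, rho 0.790, 0.747), which encodes the synthetase that charges cysteine to its tRNA. Trib3 was most like Herpud1 (r 0.748, rho 0.767, 0.701) and the growth arrest gene Gadd45a (r 0.721, rho 0.607, 0.649).

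For Chac1 the closest were Pck2 (r 0.827, rho 0.735, 0.786), the mitochondrial form of a gluconeogenic enzyme, and the neutral amino acid transporter gene Slc1a4 (r 0.809, rho 0.690, 0.775). The other 5 genes were ranked after their values had been seen. Sesn2 was closest to the arginine and lysine transporter gene Slc7a1 (r 0.887, rho 0.822, 0.826), Atf5 to the proline synthesis gene Pycr1 (r 0.848, rho 0.829, 0.794), and Cebpg to Nmd3 (r 0.834, rho 0.693, 0.740), which exports ribosomal subunits. Ddit4 was closest to Pfkfb3 (r 0.880, rho 0.770, 0.830), an activator of glycolysis, and Cebpb to Plk5 (r 0.693, rho 0.655, 0.644).

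With the mean of the 10 standardised genes the highest r were those of Cyb5r1 (0.839, rho 0.744), Herpud1 (0.832, rho 0.873), Slc7a1 (0.817, rho 0.774), Mthfd1l (0.817, rho 0.761) and Rhbdd1 (0.811, rho 0.754). At the other end, looked up after the data were seen, stood Nde1 (r -0.689, rho -0.719) and the proliferation marker gene Mki67 (r -0.656, rho -0.669). The motor neuron genes by which batches of neurons had been adjusted in the study had weak r with the same mean, 0.149 (Olig2), 0.168 (Mnx1), -0.260 (Isl1) and -0.112 (Lhx3).

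Genes listed as targets of ATF4 and CHOP, none of them among the 10, were often lower with carrier serum. The synthetases were listed as a whole family, whether or not each is a known target. Of 58 such genes in 4 lists, 35 were called lower and 0 higher, with a median log2 change of -0.17, where the median over all genes was 0.02 and 1.65% of all genes were called lower. Of 46 genes in 3 lists of neighbouring functions, 2 were called lower and 3 higher, with a median of 0.02. The lists were written with earlier results on these arrays known, so these counts are no independent support. Psph, Wars, Cebpd, Atf6 and Jdp2 were listed and not analysed here. All adjusted p-values that follow are from limma with Benjamini-Hochberg adjustment over all genes.

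Amino acid synthesis had 10 of 13 genes lower. The largest falls were those of Cth (log2 change -0.42, SE 0.085, adjusted p 0.00303), which makes cysteine, the mitochondrial folate enzyme gene Mthfd2 (-0.39, SE 0.074, adjusted p 0.00239) and the proline pathway gene Aldh18a1 (-0.24, SE 0.046, adjusted p 0.00221). Got1 (-0.10, adjusted p 0.0502) and Phgdh (-0.09, adjusted p 0.0925) did not pass. The amino acid transporters had 7 of 9 lower, led by Slc7a3 (-0.46, SE 0.107, adjusted p 0.0126), Slc7a11 (-0.46, SE 0.114, adjusted p 0.0202), the cystine importer whose promoter window is printed above, and Slc7a1 (-0.35, SE 0.067, adjusted p 0.00239). Slc1a5 (-0.13, adjusted p 0.0622) and Slc38a2 (-0.05, adjusted p 0.137) did not pass.

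Cytosolic aminoacyl-tRNA synthetases, which load amino acids onto tRNA, had 11 of 19 lower, led by Cars (-0.24, SE 0.044, adjusted p 0.00179), Yars (-0.22, SE 0.034, adjusted p 1.94e-04) and Gars (-0.20, SE 0.033, adjusted p 4.13e-04). The difference of Gars was negative in all 9 runs. Dars (-0.01, adjusted p 0.856) and Hars (0.00388, adjusted p 0.953) were the closest to 0. Mars, whose annotated interval overlaps that of Ddit3, was also lower (-0.19, adjusted p 0.00281).

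The remaining targets had 7 of 17 lower. They were led by the translation repressor gene Eif4ebp1 (-0.33, SE 0.080, adjusted p 0.0155), Herpud1 (-0.30, SE 0.058, adjusted p 0.00282) and the stress-induced chromatin protein gene Nupr1 (-0.22, SE 0.055, adjusted p 0.022). Stc2 (-0.25, adjusted p 0.0967) and Vegfa (-0.17, adjusted p 0.0532) did not pass. The next 6 genes were named after their values were seen. Ppp1r15a, which encodes the stress-induced partner of the phosphatase that reverses eIF2 phosphorylation, was also lower (-0.18, SE 0.049, adjusted p 0.0391). The death genes known as CHOP targets did not pass, with changes of 0.03 for Bbc3, 0.04 for Bcl2l11 and -0.03 for Tnfrsf10b (adjusted p 0.637, 0.345 and 0.726). The stress hormone genes Gdf15 and Fgf21 had changes of 0.05 each (adjusted p 0.752 and 0.531).

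Of the 3 neighbouring lists, the eIF2 kinases and the eIF2 machinery had 1 of 13 genes lower, Ppp1r15b (-0.12, SE 0.030, adjusted p 0.0259), which encodes the constitutive partner of the same phosphatase. The 4 kinase genes, named for their role, did not pass. Eif2ak1, Eif2ak2, Eif2ak3 and Eif2ak4 had changes of 0.01, 0.03, 0.01 and -0.06 (adjusted p 0.841, 0.545, 0.855 and 0.0985). Family relatives of the 10 genes, such as Sesn1 (-0.01, adjusted p 0.758), Chac2 (0.05, adjusted p 0.46) and Trib2 (0.01, adjusted p 0.716), had 0 of 15 called. The change was negative in 4 of the 15.

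Chaperones and other genes of the endoplasmic reticulum under ATF6 and XBP1, the other arms of the unfolded protein response, had 1 of 18 lower and 3 higher. The lower gene was Sel1l (-0.08, SE 0.023, adjusted p 0.0436), a gene of protein degradation and no chaperone. The 3 higher genes were Hspa5, which encodes the chaperone BiP (0.10, SE 0.026, adjusted p 0.0313), Pdia4 (0.09, SE 0.026, adjusted p 0.0363) and Hsp90b1 (0.08, SE 0.022, adjusted p 0.0228). The differences of Hspa5 and Pdia4 were positive in all 9 runs. With each array centred on its median, and likewise without run B, D or 10-week, all 4 of these calls were lost.

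Counts in the 4 target lists rested on several runs. The 35 genes became 20 without run B, 16 without D, 18 without F, 21 without 10-week and 3 without runs E and F together. They were 7 with E and F alone, 19 with the 4 motor neuron genes as covariates in place of the run block, and 0 with neither, where 28 were lower at an unadjusted p under 0.05. The C/EBP-ATF element TGATGNAA was found in the promoter windows of 14 of the 43 target genes that had a window, against 1219 of all 27025 genes. Of these 14 genes 11 were called lower, Asns, Aars and Herpud1 among them, where 35 of all 58 target genes were. Whether the element goes with a lower level was not tested.

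**Figure D5:**
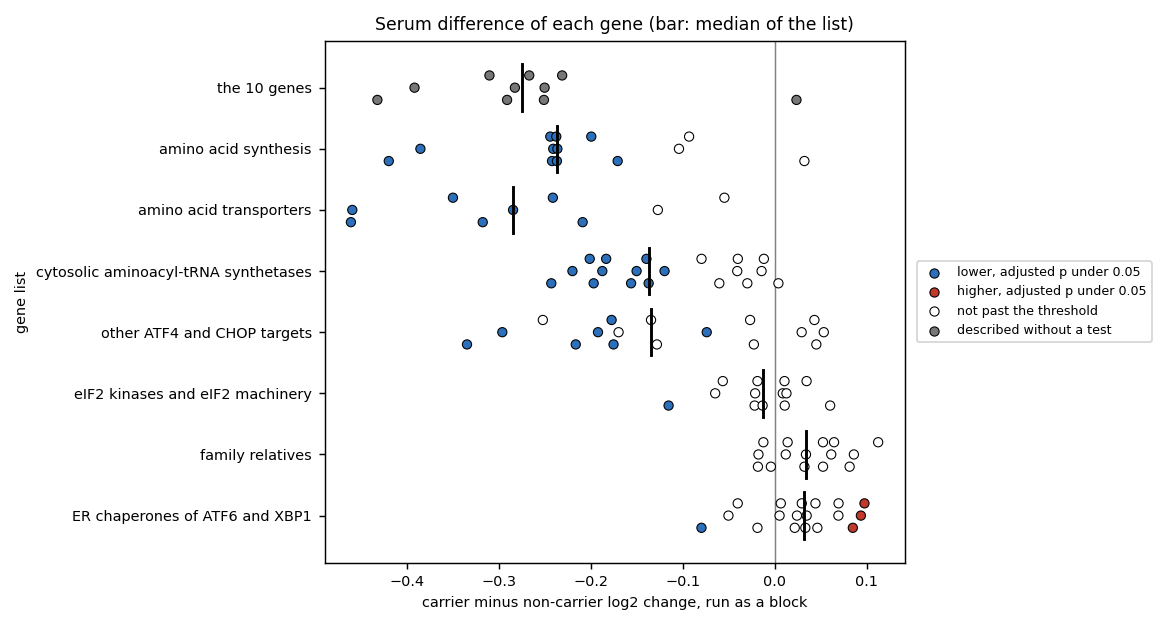
Carrier minus non-carrier log2 change with the run as a block (horizontal axis) for each gene of the 10 and of the 7 lists (rows), with filled blue and red points for genes past the adjusted p from limma, open points for the rest, grey for the 10 genes, described without a test because they were picked with this contrast known, and a bar at the median of each list. The 4 target lists lie to the left (medians -0.13 to -0.28), and the eIF2 machinery, family relatives and the list with chaperones lie around 0 (medians -0.01 to 0.03).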

How the data were processed

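RNA of embryoid bodies kept for 24 h with serum was measured on Affymetrix mouse exon arrays. The deposited values were gene intensities on a linear scale, which the authors obtained by robust multi-array averaging (RMA) and by taking the mean over the exons of each gene. Whether that mean was taken on a log scale is not given in the sources used here. The values carried no batch correction, and an array has no read depth: the number of arrays limits the precision.

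Intensities were turned into log2 with no pseudocount. Arrays were grouped by serum from the labels and by run of titles, 9 runs in all, since the labels name no batch. A linear model with serum and run was fitted to the 19613 genes in limma 3.58.1 (R 4.3.3), with a two-sided test of serum. The serum by run interaction was tested by the moderated F test. Both were adjusted over the whole table by Benjamini-Hochberg, and calls were made at 0.05. Levels, differences by run and correlations were computed in Python 3.11.15 with pandas 2.3.3, numpy 2.4.6 and scipy 1.17.1. Correlations used log2 values after the mean of each run and serum had been taken away, and r was repeated without the 2 arrays farthest from the median of the first gene named.

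The 10 genes and all lists were chosen with earlier results of these data known. In each list, up to 3 lower and 3 higher genes with the largest change past the threshold were named, with up to 2 others, and for Atf4, Ddit3, Atf3, Trib3 and Chac1 the 2 most similar genes, with 5 for the mean. In simulated data 200 genes were changed, by 0.2 or 0.4 on the log2 scale. The serum fit recovered 78% of those changed by 0.2 and 98% of those changed by 0.4. The simulated noise was drawn separately for each gene, without correlation between genes. For a change in runs E and F alone the interaction recovered 50% at 0.4 and 86% at 0.8. Alternatives covered the block, motor neuron genes as covariates, the normalization, a filter on dim genes, array weights and runs or arrays left out. Gene positions and promoter sequences were taken from RefSeq on GRCm38.p6 by symbol.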

Additional observations from a re-analysis of the deposited data

Results flagged for a closer look

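Arrays far from the rest of their run and serum were looked for in the 40 groups of a gene, run and serum with 4 or more arrays, of which chance gives about 5%. There were 2, both for non-carrier array 1 of run motorneuron. For Atf4 this array read 9.80 and the nearest of the other 3 read 10.47, a gap of 0.949 of the range of the group. For Ddit3 it read 7.35 and the nearest 8.35, a gap of 0.91 of the range. It was also the array farthest from its group in the plot of Atf4 against Ddit3 deviations.

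The serum by run interaction was past the threshold for Chac1 (limma's interaction F test, adjusted p 0.00339), Sesn2 (adjusted p 0.0202) and Atf3 (adjusted p 0.0358), over 59 arrays. The difference was negative in 7 of 9 runs for Chac1 and in 8 of 9 for Sesn2 and Atf3, and it ran from -1.73 to 0.15, from -0.89 to 0.16 and from -1.45 to 0.32 on the log2 scale. The differences by run were known when the genes were picked, so these p-values are not independent of that choice, and none of the 3 genes was called without run B or without run C (for Chac1 the adjusted p from limma was 0.175 and 0.177).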

How the results depend on the processing

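The 9 genes of the 10 with a negative log2 change kept that sign in every alternative fit run, including the covariates, normalizations and left-out runs, while the counts of calls moved. Without a block, 0 genes were called lower (386 at an unadjusted p under 0.05), 0 higher, 0 of the 10 genes (9 unadjusted), 0 target genes (28 unadjusted) and 0 in the 3 other lists. With the run as a block 323 genes were lower, 0.683% of all genes higher, and 9, 35 and 5 were called in the other 3 counts. With 4 motor neuron genes as covariates besides the run block 2174 genes were lower and 3952 higher, with 12 in the other lists, and with these covariates but no run block 50, 4, 4 of the 10 genes (Atf4, Ddit3, Atf3 and Cebpg), 19 target genes and 0. Array weights gave 1440 lower, 1363 higher and 11 in the other lists, the filter on dim genes 510 lower (Cebpb fell under it), run C parted into 2 blocks 206 higher, and centring on the median 1 in the other lists. Without runs E and F the counts were 32, 27, 0 (9 unadjusted), 3 and 0, and with E and F alone 17, 0, 0 (9 unadjusted), 7 and 0. With E and F alone the log2 change was -0.48 for Atf4, -0.70 for Atf3, -0.60 for Trib3, -0.77 for Chac1 and -0.46 for Sesn2. The fits that left runs out also held fewer arrays. The cause of these shifts was not tested.

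With a run or array left out, 81 (run D) to 918 (run C) genes were lower and 22 (run 10-week) to 683 (run C) higher. Of the 10 genes 3 (B, D, E or F) to 9 were lower, of the target genes 16 (D) to 43 (C), and 0 (B, D or 10-week) to 7 (C) were called in the other lists. Without the non-carrier array of run C that stood apart 489 genes were lower and 512 higher. The interaction was called for 0 (C) to 54 (motorneuron) genes, 0 (B or C) to 5 (motorneuron or E) of the 10 genes, and 0 (C) to 20 (E) target genes, and without the carrier array of run E that stood apart for 43 genes. The median r among the 10 genes was 0.521 to 0.571, and 0.546 with run C parted, which was chosen after seeing the data.

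Some replicate numbers were shared by both sera. Over 8 pairs the deviations of same-numbered arrays had an r of -0.135 to 0.327, and 1 was over 0.1. The 2 pairs of run HB9MNs have the same r (0.0635) by construction, as each serum has 2 arrays there. Whether the numbers mark pairs was not tested. With the replicate block 340 genes were lower, 173 higher, 9 of the 10 genes, 33 target genes and 5 in the other lists.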
